A study of Homo sapiens with 16 samples.

Results

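CA9, CA12, NDRG1, ADM, BNIP3, BNIP3L, ANKRD37, DDIT4, STC1 and STC2 are 10 genes widely used as markers of the transcriptional response to low oxygen, and their transcripts were followed through the 4 stages of the isogenic BJ fibroblast model at atmospheric and at 3% oxygen. They are 10 of the 19356 protein-coding genes in the table. The genes were chosen by name with earlier results of the same TPM values in view, so for the markers a call only describes which of them passed the threshold of a fit across all genes, and is not an independent test. The stages are primary BJ fibroblasts, an immortalized line that carries hTERT, a transformed line that carries hTERT and SV40 Large-T, and a metastasizing line that carries hTERT, SV40 Large-T and Ras-G12V. Every stage was kept at atmospheric or at 3% oxygen for 6 passages, and RNA from duplicate plates (replicates a and b) gave 8 groups of 2 libraries, 16 in all. Each stage is a single line, so the spread between replicates is that between plates of a line and not between donors or clones.

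When oxygen is plentiful, prolyl hydroxylases mark the HIF alpha subunits for VHL-dependent degradation. When oxygen falls the subunits are stabilized, pair with ARNT and bind hypoxia response elements, whose core is the letters ACGTG or GCGTG, near genes for glucose metabolism, pH control, blood supply and mitochondrial turnover. The markers sit at different points of that response. CA9 and CA12 are membrane carbonic anhydrases that handle acid outside the cell, ADM, STC1 and STC2 are secreted peptides and glycoproteins, BNIP3 and BNIP3L are mitochondrial receptors for mitophagy, DDIT4 (REDD1) restrains mTORC1 signalling, NDRG1 is a stress-inducible cytoplasmic protein, and ANKRD37 is a small ankyrin repeat protein. Several of them have other well-known inducers, among them ATF4 for DDIT4 and STC2.

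The promoters are shown because they hold the letters through which the response is known to act. RefSeq promoter sequences (GRCh38.p14) were searched for 7 of the 10 genes, and each matched a single place in GRCh37, whose coordinates are given here. NDRG1, BNIP3L and STC1 were left out of the search. Whether their promoters hold these letters was not tested, and the counts that follow do not cover them. In the 250 bases before the annotated start, ACGTG on either strand was found in 4 of those 7 (CA9, BNIP3, ANKRD37 and DDIT4), against 18.5% of the 35116 promoters in the RefSeq table. GCGTG on either strand was found in 5 (CA12, ADM, BNIP3, DDIT4 and STC2), against 32.2% of all promoters. The 50 bases around the ACGTG nearest to the start follow, 5′ to 3′ on the strand of the gene, with every ACGTG or CACGT (its reverse complement) in capitals. In the palindrome CACGTG of BNIP3 and ANKRD37 the forward and the reverse match overlap.
CA9, chr9:35673875-35673924, plus strand: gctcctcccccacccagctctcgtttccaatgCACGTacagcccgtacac
BNIP3, chr10:133795534-133795583, minus strand: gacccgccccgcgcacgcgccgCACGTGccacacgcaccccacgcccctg
ANKRD37, chr4:186317829-186317878, plus strand: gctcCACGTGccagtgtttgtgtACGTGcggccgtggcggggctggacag
DDIT4, chr10:74033534-74033583, plus strand: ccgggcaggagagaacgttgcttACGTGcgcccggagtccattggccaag
The matches begin 18 bases before the start in CA9, 133 in BNIP3, 143 in ANKRD37 and 125 in DDIT4. A match is a description of letters, and no match says only that these letters are not in the window.

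Values are TPM summed over the transcripts of a gene, which are scaled per transcript length and so allow levels to be compared between genes. TPM keep no read count, so the depth behind each value is unknown. Differences are on the log2(TPM + 0.5) scale with the standard error (SE) of a limma fit across all 16 libraries, and a gene is called at an adjusted p under 0.01 and a log2 difference beyond 1. The fit holds a single spread per gene, shared by all groups. The SE of an oxygen difference is therefore the same in every stage. It is not widened for a stage whose replicates differ more. The share of genes above 1 TPM that differed more than 2-fold between replicates was 1.83% to 4.08% in 7 groups and 11.0% (1301 of 11843) in metastasizing cells at 3% oxygen, where 6 of the 10 markers (CA9, CA12, NDRG1, DDIT4, STC1 and STC2) did so. HRAS stood at 143 and 772 TPM in these libraries and at 78.1 to 94.6 TPM in metastasizing cells at atmospheric oxygen, which is no higher than the 99.0 to 120 TPM of transformed cells at atmospheric oxygen. How far the annotated HRAS transcripts capture an introduced Ras sequence was not tested, so these levels do not check the line. TERT was at 0 to 0.543 TPM in primary cells and at 31.6 to 193 TPM in all later libraries. Of the fibroblast markers, VIM (2619 to 6211 TPM), COL1A1 and COL1A2 were present in every library, their list summed to 22005 to 22567 TPM in primary and 5576 to 5738 TPM in transformed cells at atmospheric oxygen, and of the epithelial and leukocyte markers KRT8, KRT18 (85.4 to 645 TPM) and CD68 were above 1 TPM in every library too. KRT19 reached 203 TPM and passed 1 TPM in 13 libraries, PTPRC in 6, EPCAM in 3, and CDH1 and TIE1 in 2. Among the fibroblast markers PDGFRA passed 1 TPM in 13 libraries and POSTN in 6. CD3E was at 0, and KRT5, KRT14, CDH5 and VWF stayed below 1 TPM in all libraries.

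CA9 (ENSG00000107159, chromosome 9, 35673925 to 35681156), the tumour-associated carbonic anhydrase, had the widest range of the markers. In primary cells it was near the floor, at 0.990 and 0.344 TPM at atmospheric oxygen and 3.40 and 1.29 TPM at 3% oxygen. Immortalized cells held 4.55 and 7.73 TPM at atmospheric oxygen and 82.8 and 75.9 TPM at 3% oxygen. In transformed cells CA9 stood at 0.231 and 0.487 TPM at atmospheric oxygen and 44.0 and 45.5 TPM at 3% oxygen. The 3% libraries lay above the atmospheric ones in each of these stages, and the means of the transformed stage, 0.359 ± 0.181 and 44.8 ± 1.03 TPM (SD, n = 2), were 125-fold apart. That ratio rests on atmospheric values near the floor. On the log2 scale the difference of transformed cells, 5.74, ranged from 4.95 to 6.67 over the alternatives. Metastasizing cells had 5.42 and 3.12 TPM at atmospheric oxygen and 7.13 and 17.8 TPM at 3% oxygen, so the lower 3% library was close to the higher atmospheric one. In stage order the log2 differences were 1.24, 3.63, 5.74 and 1.35, each with an SE of 0.48. In this gene the only transcript with an annotated coding sequence, CA9-201, held a median of 47.0% of the TPM, and CA9-203, without a defined coding sequence and starting 2235 bases downstream, held 49.4%. With coding transcripts alone the log2 differences were 1.23, 3.46, 4.95 and 1.29. ARHGEF39 overlaps CA9 on the opposite strand at up to 11.4 TPM, and the default parameters of kallisto, which the study's methods name for its differential expression runs, use no strand, so under them reads from the shared stretch cannot be told apart by strand.

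CA12 (ENSG00000074410, chromosome 15, 63613577 to 63674045), the other membrane carbonic anhydrase of the set, moved little with oxygen before the last stage. It stood at 5.50 and 5.62 TPM in primary cells at atmospheric oxygen and at 6.50 and 5.01 TPM at 3% oxygen, and these ranges overlap. Immortalized cells had 10.9 and 11.5 TPM against 13.4 and 12.1 TPM at 3% oxygen. Transformed cells had 2.31 and 2.95 TPM against 4.34 and 5.23 TPM at 3% oxygen. In both stages the 3% libraries were the higher, by 0.18 and 0.76 on the log2 scale (SE 0.35). In metastasizing cells CA12 was at 3.54 and 4.15 TPM at atmospheric oxygen and at 6.87 and 19.7 TPM at 3% oxygen. The log2 difference of 1.49 ranged from 0.77 to 2.22 over the alternatives, which include leaving out each 3% library. CA9 and CA12 therefore differed in where they were highest at 3% oxygen, CA9 in immortalized cells (79.3 ± 4.89 TPM) and CA12 in metastasizing and immortalized cells (13.3 ± 9.05 and 12.7 ± 0.957 TPM), whose ranges overlap.

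NDRG1 (ENSG00000104419, chromosome 8, 134249418 to 134314265) had the same order of oxygen levels at every stage and very different sizes of difference. Primary cells held 30.1 and 26.7 TPM at atmospheric oxygen and 61.8 and 42.2 TPM at 3% oxygen. Immortalized cells held 140.4 and 111 TPM at atmospheric oxygen and 189 and 169 TPM at 3% oxygen. The groups did not overlap in either stage, and the log2 differences were 0.84 and 0.52 (SE 0.30). In transformed cells NDRG1 was at its lowest at atmospheric oxygen, 14.4 and 15.3 TPM, and at 344 and 384 TPM at 3% oxygen, a 24.5-fold ratio of means. Metastasizing cells had 84.3 and 62.9 TPM at atmospheric oxygen and 232 and 490.0 TPM at 3% oxygen, a log2 difference of 2.20 against 4.57 in transformed cells. At 3% oxygen the means of the transformed and metastasizing stages, 364 ± 28.3 and 361 ± 182 TPM, lie side by side, so the smaller difference of metastasizing cells came with a higher level at atmospheric oxygen. Transcripts annotated as coding held 49.9% to 69.5% of NDRG1 TPM, and restricting to them gave 0.82, 0.59, 4.71 and 2.25. Of the NDRG relatives, NDRG2 fell in immortalized cells (log2 difference -1.16), and NDRG3 and NDRG4 passed the test at no stage. The limma adjusted p of NDRG2 reached 0.022 over the alternatives.

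ADM (ENSG00000148926, chromosome 11, 10326620 to 10328944), which encodes the vasodilator adrenomedullin, was abundant and nearly flat. It stood at 149 and 183 TPM in primary cells at atmospheric oxygen and at 157 and 107 TPM at 3% oxygen. Immortalized cells had 181 and 246 TPM against 202 and 172 TPM at 3% oxygen. In metastasizing cells the values were 195 and 154 TPM against 159.8 and 193 TPM at 3% oxygen. The oxygen groups overlapped in these 3 stages. In transformed cells the 3% libraries, at 192 and 233 TPM, lay just below the atmospheric ones, at 249 and 236 TPM. Its 4 log2 differences lay between -0.35 and 0.02 (SE 0.21), and the highest of the 8 group means was 1.84-fold the lowest, the narrowest range of the 10 markers. Among genes for receptors of adrenomedullin and related peptides, the scavenging receptor ACKR3 fell in primary and metastasizing cells (log2 differences -2.50 and -1.68). The accessory protein RAMP1 fell in primary cells (-1.85). The limma adjusted p of ACKR3 reached 0.0088 and 0.11 in these stages over the alternatives, and that of RAMP1 reached 0.032. RAMP2 was not called in transformed cells (-0.44). The receptor CALCRL passed the test in neither of the stages in which it was high enough to be tested.

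STC1 (ENSG00000159167, chromosome 8, 23699442 to 23712319) and STC2 (ENSG00000113739, chromosome 5, 172741726 to 172755450) encode stanniocalcins, secreted glycoproteins of calcium and phosphate handling, and they changed sign between stages. STC1 in primary cells was at 23.7 and 7.87 TPM at atmospheric oxygen and at 44.1 and 24.6 TPM at 3% oxygen, where the nearest libraries almost touch. In immortalized cells the order was the opposite, with 332 and 203 TPM at atmospheric oxygen and 87.0 and 72.6 TPM at 3% oxygen. Transformed cells had 6.08 and 5.86 TPM at atmospheric oxygen and 59.2 and 88.7 TPM at 3% oxygen. Metastasizing cells had 27.5 and 30.8 TPM at atmospheric oxygen and 116 and 441 TPM at 3% oxygen, a range that overlaps that of immortalized cells at atmospheric oxygen. The log2 differences of STC1 were 1.23, -1.70, 3.50 and 2.93 (SE 0.59), and the last ranged from 1.97 to 3.90 over the alternatives.

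STC2 was lower at 3% oxygen in primary cells, at 157 and 161 TPM against 113 and 76.9 TPM. It was lower at 3% oxygen in immortalized cells too, at 152 and 185 TPM against 71.7 and 67.5 TPM. Transformed cells showed the opposite order, with 54.3 and 51.5 TPM at atmospheric oxygen and 193 and 181 TPM at 3% oxygen. The libraries of the oxygen levels did not overlap in any of these stages, and the log2 differences were -0.77, -1.27 and 1.81 (SE 0.27). In metastasizing cells the atmospheric libraries, at 137 and 114 TPM, lay between the 3% libraries, at 182 and 89.4 TPM. Coding transcripts alone gave -0.90, -1.12, 2.06 and 0.33 over the stages, STC2-203 being a retained-intron transcript with a median of 12.8% of the TPM.

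BNIP3 (ENSG00000176171, chromosome 10, 133781188 to 133795471) was higher at 3% oxygen by a similar amount in each of the first 3 stages. Primary cells held 59.9 and 59.3 TPM at atmospheric oxygen and 221 and 208 TPM at 3% oxygen. Immortalized cells held 132 and 128 TPM at atmospheric oxygen and 391 and 374 TPM at 3% oxygen. Transformed cells held 115 and 117 TPM at atmospheric oxygen and 445 and 426 TPM at 3% oxygen. The ratios of means were 3.59, 2.94 and 3.75, and the replicates of each of these groups lay close together. In metastasizing cells BNIP3 was already at 333 and 338 TPM at atmospheric oxygen, between the 3% libraries of 274 and 476 TPM, with a log2 difference of 0.11 (SE 0.18). That difference ranged from -0.29 to 0.50 over the alternatives. BNIP3 has 42 listed pseudogenes, of which BNIP3P1 on chromosome 14 (28733596 to 28735180) held 9.98 to 74.1 TPM, 11.0% to 16.7% of the sum of the pair, so some reads may be split between near-identical copies. With BNIP3P1 added to BNIP3 the difference was above 0 in all 4 stages, as without it.

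BNIP3L (NIX, ENSG00000104765, chromosome 8, 26240570 to 26363152), the related mitophagy receptor that clears mitochondria from maturing red cells, was higher at 3% oxygen in every stage. It stood at 97.6 and 92.2 TPM in primary cells at atmospheric oxygen and at 177 and 165 TPM at 3% oxygen. Immortalized cells had 215 and 187 TPM against 264 and 255 TPM at 3% oxygen. The values in metastasizing cells were 171 and 160.4 TPM against 205 and 266 TPM at 3% oxygen. The libraries did not overlap, yet the log2 differences of 0.84, 0.37 and 0.50 (SE 0.12) stayed under 1. Transformed cells had the lowest level at atmospheric oxygen, 70.8 and 73.6 TPM, and the highest at 3% oxygen, 335 and 289.8 TPM, a log2 difference of 2.10. Of 15 tested mitophagy receptors and adaptors besides these genes, GABARAPL1 and OPTN rose in transformed cells (log2 differences 1.13 and 1.04), and GABARAPL1 fell in primary cells (-1.02). The limma adjusted p reached 0.013 for GABARAPL1 in primary and 0.011 for OPTN in transformed cells over the alternatives. None passed the limma test in immortalized or metastasizing cells (7 in each at an unadjusted p under 0.05). Of all genes tested, 2.13% were called higher and 2.78% lower in immortalized cells, and 3.06% and 4.6% in metastasizing cells. In transformed cells 4.9% were called higher, and in primary cells 2.52% lower. Nothing is read from the number of calls or their absence.

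DDIT4 (ENSG00000168209, chromosome 10, 74033678 to 74035794) was lower at 3% oxygen in the early stages. Primary cells had 18.2 and 18.1 TPM at atmospheric oxygen and 6.06 and 4.95 TPM at 3% oxygen. Immortalized cells had 33.7 and 40.3 TPM at atmospheric oxygen and 17.4 and 15.5 TPM at 3% oxygen. In transformed cells the order was reversed, with 15.7 and 12.4 TPM at atmospheric oxygen and 123 and 88.8 TPM at 3% oxygen, a 7.52-fold ratio of means. The oxygen levels did not overlap in these stages, and the log2 differences were -1.64, -1.14 and 2.86 (SE 0.46). In metastasizing cells the 3% libraries, at 17.2 and 71.3 TPM, lay on either side of the atmospheric ones, at 62.9 and 55.0 TPM, and the log2 difference of -0.73 became 0.27 without replicate a at 3% oxygen. The paralog DDIT4L rose in primary, transformed and metastasizing cells (1.78, 1.28 and 3.20). At atmospheric oxygen DDIT4L was near the floor in transformed and metastasizing cells, at means of 0.442 and 0.181 TPM, against 1.83 and 5.74 TPM at 3% oxygen. Its limma adjusted p reached 0.0102 in primary, 0.042 in transformed and 0.0090 in metastasizing cells over the alternatives. TXNIP, a restraint on glucose uptake, rose in primary cells (1.57) and fell in transformed cells (-3.74), opposite in sign to DDIT4 in each. Over the alternatives the limma adjusted p of TXNIP reached 0.013 in primary and 0.0029 in transformed cells.

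ANKRD37 (ENSG00000186352, chromosome 4, 186317175 to 186321782) stayed at low levels, and the highest of its 8 group means was 2.84-fold the lowest. It was at 5.37 and 3.69 TPM in primary cells at atmospheric oxygen and at 9.03 and 8.98 TPM at 3% oxygen. In immortalized cells it was at 4.16 and 2.74 TPM against 4.83 and 4.67 TPM at 3% oxygen. Transformed cells had 3.23 and 3.41 TPM against 8.87 and 10.0 TPM at 3% oxygen. The 3% libraries were the higher in each, by 0.94, 0.43 and 1.38 on the log2 scale (SE 0.21). Metastasizing cells showed the other order, with 6.49 and 7.51 TPM at atmospheric oxygen and 4.28 and 5.02 TPM at 3% oxygen, a difference of -0.54. Coding transcripts alone gave 1.28, 0.67, 1.61 and -0.28 over the stages. The coding transcript ANKRD37-201 held a median of 52.5% of the TPM and the retained-intron transcript ANKRD37-206 held 32.2%, and UFSP2, at up to 30.5 TPM, overlaps the gene on the opposite strand.

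**Figure D1:**
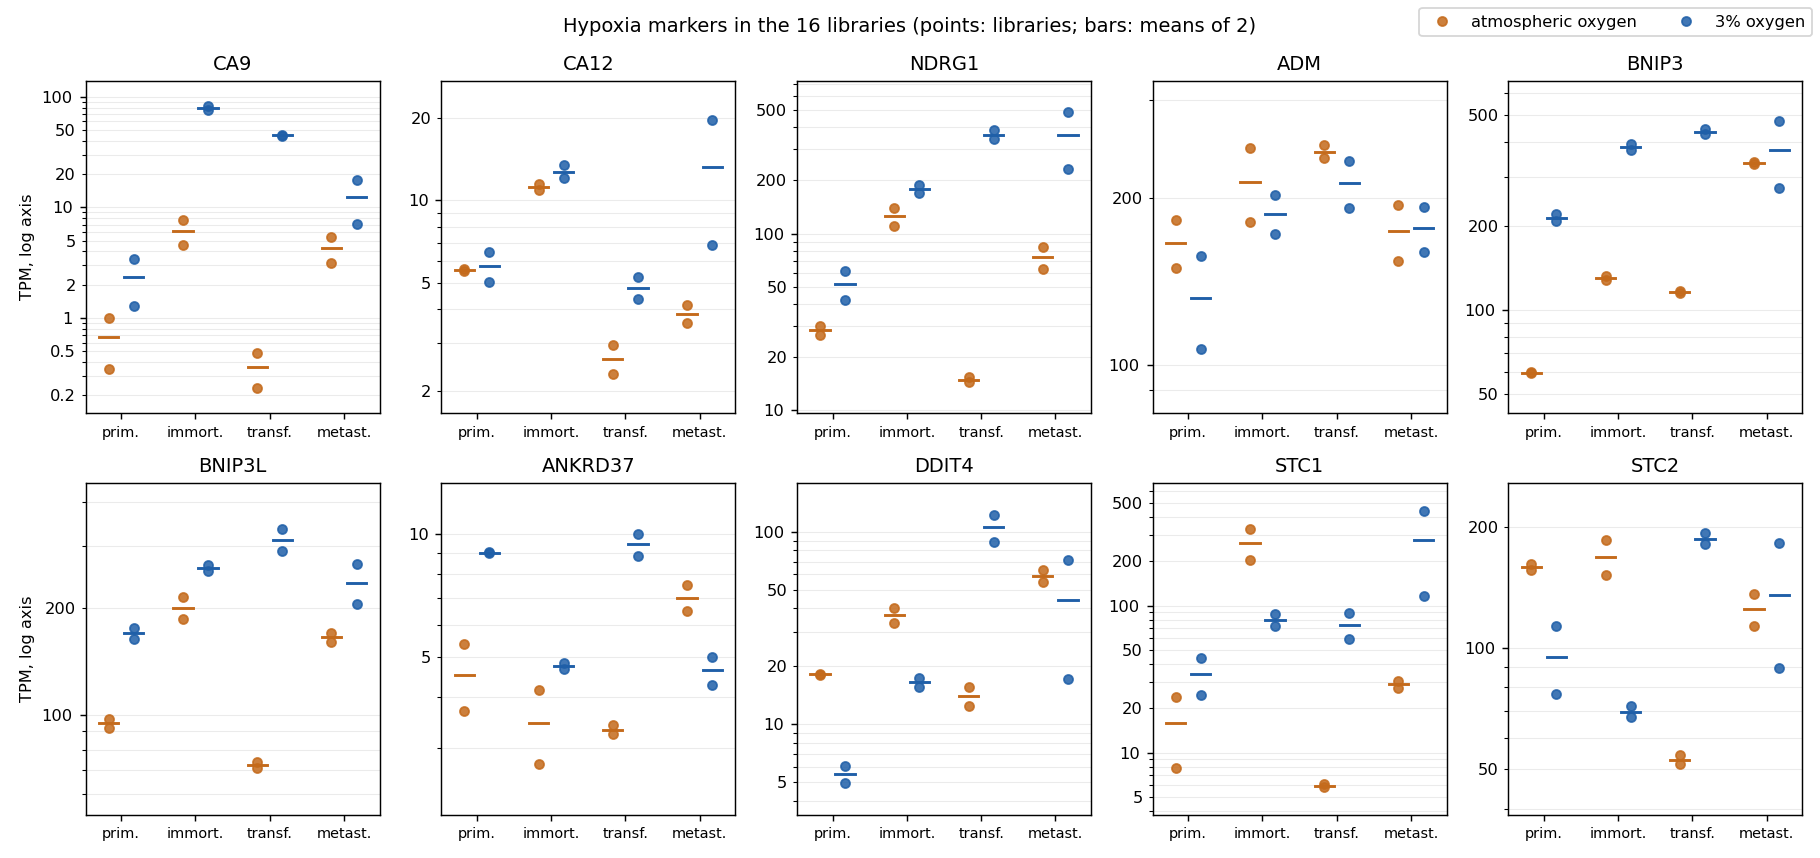
TPM on a log axis for each of the 10 markers in the 16 libraries, by stage and oxygen level, with points for libraries and bars for the means of 2. CA9, NDRG1 and STC1 have their lowest atmospheric level in transformed cells and lie far above it at 3% oxygen, while ADM stays between 107 and 249 TPM throughout.

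Set side by side, more of the markers were higher at 3% oxygen in transformed cells than in any other stage. There the 3% libraries lay above the atmospheric libraries for 9 markers and below them for ADM, 8 were called higher and 0 lower, and the median log2 difference was 2.00 against 0.01 over all 12242 genes tested, of which 4.9% were called higher and 2.58% lower. In primary cells 6 markers lay above, 2 (DDIT4 and STC2) below and 2 overlapped. There 1 marker, BNIP3, was called higher, where 2.78% of all genes were called higher and 2.52% lower. Immortalized cells had 6 above, 3 below (DDIT4, STC1 and STC2) and 1 overlapping, with CA9 and BNIP3 called higher and STC2 lower, against 2.13% and 2.78% of all genes. Metastasizing cells had 5 above, 1 below (ANKRD37) and 4 overlapping. In them CA12, NDRG1 and STC1 were called higher, against 3.06% of all genes called higher and 4.6% lower. The medians over the markers were 0.84 in primary, 0.28 in immortalized and 0.30 in metastasizing cells, against 0.08, 0.11 and -0.13 over all genes tested. Since these contrasts are among the values known when the genes were chosen, the shares are printed for scale and nothing is read from them. The share of all genes whose libraries lay apart by oxygen was not counted, so the numbers above, below and overlapping are a description too.

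Some of these calls rest on the choice of fit or on a library. In metastasizing cells CA12, NDRG1 and STC1 were no longer called when only the groups compared were fitted. In immortalized cells that fit also called DDIT4, as lower. Without replicate a or without replicate b of metastasizing cells at atmospheric oxygen, NDRG1 alone was called. Without replicate b at 3% oxygen, NDRG1 was called higher and DDIT4 lower. The call of CA12 was lost under most alternatives, with either other pseudocount and all 3 replicate blocks among them, and that of STC1 with no filter on low values and with the crossed replicate block. In transformed cells STC1 was not called without replicate a or b at atmospheric or replicate b at 3% oxygen, and DDIT4 was not called without replicate b at atmospheric oxygen. In immortalized cells STC2 was not called with no filter on low values, with a replicate block within each stage, with the moderated test without a trend, or without any 1 of the 4 immortalized libraries, the 2 primary atmospheric or the 2 transformed atmospheric ones. Without replicate a or b of metastasizing cells at 3% oxygen, DDIT4 was also called, as lower, in primary cells, which gave 2 calls there, and in immortalized cells. In bulk RNA, a smaller share of cells expressing a gene and less RNA per cell cannot be told apart. Rescaling the libraries by median ratios moved the median of all genes to -0.02 in primary, -0.01 in immortalized, 0.01 in transformed and 0 to 2 decimals in metastasizing cells, and the genes called higher and lower from 339 and 307 to 261 and 379, from 257 and 335 to 174 and 451, from 600 and 316 to 581 and 320, and from 376 and 565 to 466 and 441. The calls among the markers were the same genes under it.

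**Figure D2:**
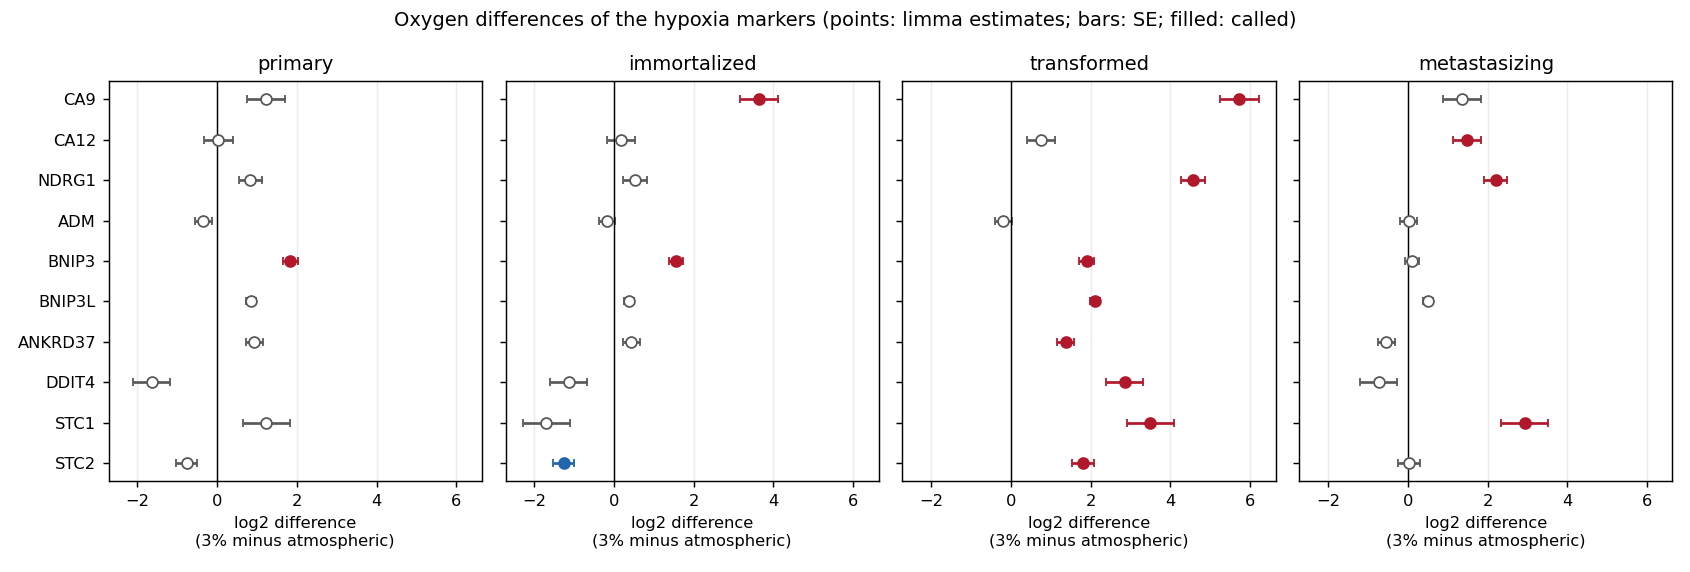
Log2 difference of 3% minus atmospheric oxygen for each marker (rows) in each stage (panels), with filled points for called differences. Bars are the SE of the limma fit, which for a gene is the same in every stage. In transformed cells 8 filled points lie right of 0, from 1.38 (ANKRD37) to 5.74 (CA9), while the other stages have 1 to 3 filled points.

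At atmospheric oxygen, most markers were higher after the first step of the model, lower after the second and higher again after the third. From primary to immortalized cells 9 of 10 markers were higher, and 5 (CA9, NDRG1, BNIP3, BNIP3L and STC1) were called higher and 0 lower, against 5.98% and 6.26% of all genes. STC1 had the largest of these differences, 4.19 ± 0.59 (SE) on the log2 scale, and ANKRD37 was the exception at -0.35. From immortalized to transformed cells 9 of 10 were lower, and 6 (CA9, CA12, NDRG1, BNIP3L, STC1 and STC2) were called lower and 0 higher, against 11.2% and 13.2% of all genes. The log2 differences were -5.33 for STC1, -3.03 for NDRG1 and -2.92 for CA9, and ADM was the one marker with a value above 0, at 0.20. From transformed to metastasizing cells 9 of 10 were higher, and 5 (CA9, NDRG1, BNIP3, BNIP3L and STC2) were called higher and 0 lower, against 2.4% and 1.72% of all genes. CA9 was 2.45, NDRG1 2.26 and BNIP3 1.53 higher, and ADM was lower by 0.49. In the last step 3 markers were called without any 1 of the immortalized libraries at 3% oxygen or of the transformed or metastasizing libraries at atmospheric oxygen. Medians over the markers were 1.04, -1.56 and 1.38 for the 3 steps. Neighbouring steps share a group of libraries, so opposite signs in successive steps are not separate observations. The directions and the calls of the steps are a description in the same sense.

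At 3% oxygen the medians of the same steps were 0.96, 0.22 and -0.34. From primary to immortalized cells CA9 (4.92) and NDRG1 (1.80) were called, both higher, where 9.23% of all genes were called in either direction. From immortalized to transformed cells DDIT4 (2.63) and STC2 (1.42) were called, both higher, where 16.3% of all genes were. From transformed to metastasizing cells 0 of 10 were called by limma under the main settings, where 5.92% of all genes were, with log2 differences from -1.94 (CA9) to 1.63 (STC1), and 6 of them had an unadjusted p under 0.05. Without replicate a or b of metastasizing cells at 3% oxygen, 4 markers were called in the first of these steps, 4 in the second and 3 in the third. The first step gave 1 call without replicate b of primary or replicate a of immortalized cells at 3% oxygen. The second gave 1 call without replicate a or b of immortalized or replicate a of transformed cells at 3% oxygen. DDIT4 had its lowest group mean in primary cells at 3% oxygen, 5.50 ± 0.783 TPM, and its highest in transformed cells at 3% oxygen, 106 ± 23.9 TPM. BNIP3L had its lowest group mean in transformed cells at atmospheric oxygen, 72.2 ± 2.00 TPM, and its highest in the same cells at 3% oxygen, 312 ± 31.8 TPM. The group of transformed cells at atmospheric oxygen was the lowest of the 8 for CA9, CA12, NDRG1, BNIP3L, ANKRD37, STC1 and STC2, although for CA9 its range overlaps that of primary cells and for ANKRD37 those of immortalized cells, both at atmospheric oxygen.

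**Figure D3:**
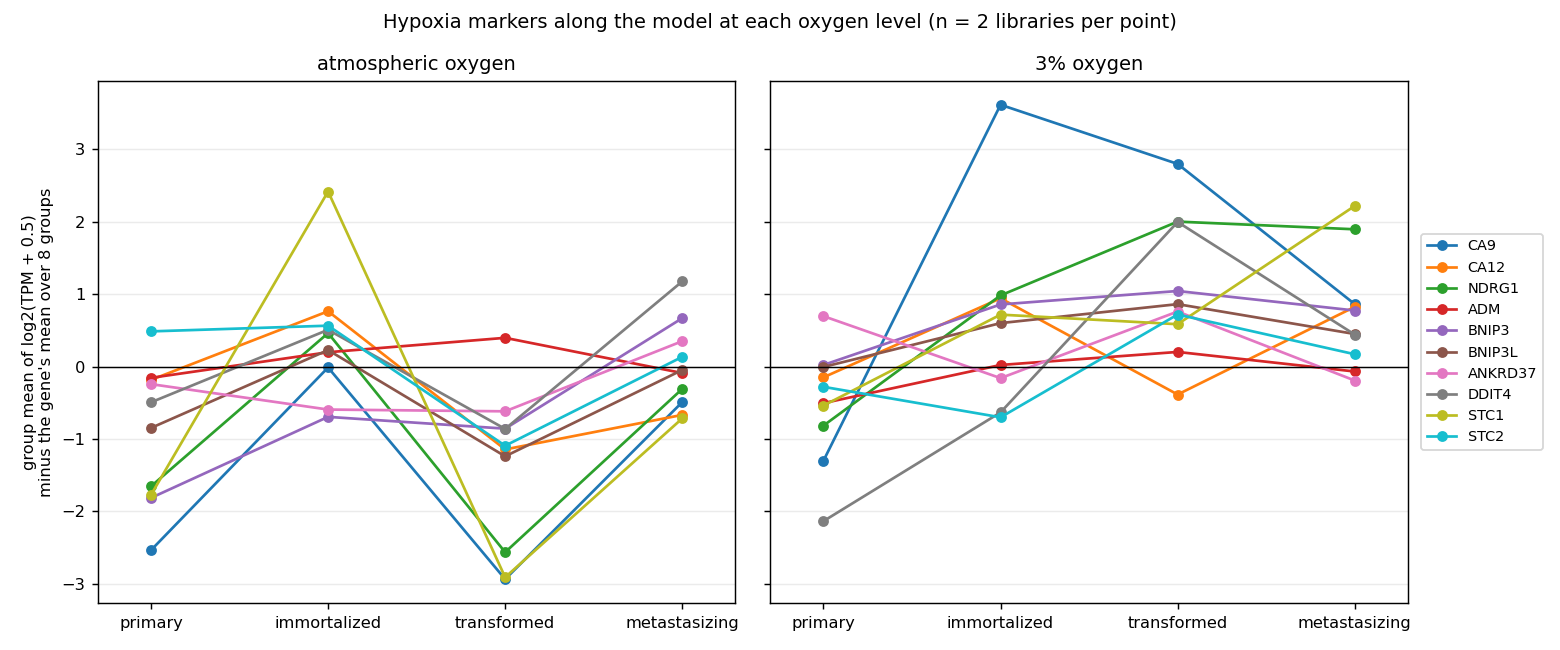
Group means of log2(TPM + 0.5) of each marker, relative to its own mean over the 8 groups, along the 4 stages at atmospheric (left) and 3% oxygen (right), with 2 libraries per point. At atmospheric oxygen 6 of the 10 lines peak in immortalized cells and most dip in transformed cells, with STC1 moving by 4.19 and -5.33, and at 3% oxygen the dip is absent for all but CA12 and, slightly, STC1.

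The oxygen difference itself was compared between neighbouring stages by the interaction terms of the same fit. These values too were known when the markers were chosen, so the directions and the calls are a description and nothing is read from their number. Between primary and immortalized cells it changed by -2.93 for STC1 and 2.39 for CA9, and 0 of 10 markers were called in either direction by limma (3 at an unadjusted p under 0.05), where 1.86% of all genes were. Between immortalized and transformed cells it was larger in transformed cells for 9 of 10 markers, and NDRG1 (4.05 ± 0.42, SE), BNIP3L (1.73 ± 0.17), DDIT4 (4.00 ± 0.66), STC1 (5.20 ± 0.84) and STC2 (3.08 ± 0.38) were called, where 12% of all genes were. Between transformed and metastasizing cells 8 of 10 markers had the smaller difference in metastasizing cells, and CA9 (-4.38), NDRG1 (-2.36), BNIP3 (-1.80), BNIP3L (-1.60), ANKRD37 (-1.92), DDIT4 (-3.59) and STC2 (-1.78) were called, where 8.47% of all genes were. The fit of only the groups compared called 0 of the 10 in that comparison, and 4 were called without replicate a or b of transformed cells or replicate a of metastasizing cells at atmospheric oxygen. CA12 and ADM changed by less than 1 between every pair of neighbouring stages.

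The markers did not share a profile. Likeness was measured as the root mean square difference between 2 genes of their log2 group means, each centred on its own mean, over the 8 groups and 13146 genes, and smaller is more alike. The closest pair among the markers was BNIP3 and BNIP3L at 0.58, followed by BNIP3L and CA12 at 0.61, and the farthest was ADM and CA9 at 2.18. CA9 and CA12 differed by 1.87 and STC1 and STC2 by 1.54, so these related genes were farther apart than most pairs. Over all genes, the closest to BNIP3 was PLOD2, a collagen lysyl hydroxylase and hypoxia target, at 0.33, and the closest to BNIP3L was P3H2, a collagen prolyl hydroxylase, at 0.21. DDIT4 was closest to TRIB3, a stress-induced pseudokinase, at 0.40, and STC1 to TMEM158 at 0.61 and to IL1A, the cytokine, at 0.69. The nearest genes were AREG for CA9 (1.25), RARRES1 for CA12 (0.18), DOCK4 for NDRG1 (0.79), DAXX for ADM (0.11), GMCL1 for ANKRD37 (0.11) and VAT1 for STC2 (0.23). A flat gene such as ADM, with a root mean square of 0.26 about its own mean, has many near neighbours, while the nearest gene to CA9 remains far from it.

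Calls among the HIF subunits, their hydroxylases and the pH regulators are a description, and nothing is read from their number. For scale, 2.78%, 2.13%, 4.9% and 3.06% of all genes tested were called higher from primary to metastasizing cells. The shares called lower were 2.52%, 2.78%, 2.58% and 4.6%. HIF1A stood at 254 to 436 TPM in all libraries, and its log2 oxygen differences of 0.17, -0.05, 0.19 and -0.26 did not pass the test. EPAS1, which encodes HIF-2 alpha, was at 265 to 303 TPM in immortalized cells at atmospheric oxygen and at 142 to 153 TPM at 3% oxygen, a difference of -0.94 that was not called. Among the 8 tested subunits and hydroxylases, ARNT2 fell in primary cells (-2.00) and EGLN1, the main HIF prolyl hydroxylase and itself a HIF target, rose in transformed cells (1.23), and no other gene of the list was called by limma, with 3 of the 8 at an unadjusted p under 0.05 in each stage. Of the carbonic anhydrases and pH regulators other than CA9 and CA12, the bicarbonate cotransporter SLC4A4 rose in primary and immortalized cells (1.79 and 2.07), 7 to 10 of 18 were tested per stage, and no other gene was called. The limma adjusted p of SLC4A4 in primary cells reached 0.018 over the alternatives.

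Other targets of the hypoxia response, 57 genes of glycolysis, matrix and vessels, and feedback, were set beside the markers. From primary to metastasizing cells 2.78%, 2.13%, 4.9% and 3.06% of all genes tested were called higher, and 2.52%, 2.78%, 2.58% and 4.6% lower. Of these targets 17 of 54 tested rose and 1 fell in primary cells, and 8 of 53 rose and 0 fell in immortalized cells. In transformed cells 17 of 52 rose and 2 fell. In metastasizing cells 0 of 53 rose and 3 fell by limma (4 and 16 at an unadjusted p under 0.05), and these falls were near the share of all genes. In metastasizing cells the number called was 1 without replicate a or b at atmospheric oxygen, 5 without replicate a and 7 without replicate b at 3% oxygen. Their median log2 differences were 0.78, 0.49, 0.73 and -0.15. The markers thus had a median near that of these targets in primary cells and below it in immortalized cells (0.28 against 0.49). It was above that of the targets in transformed and in metastasizing cells (0.30 against -0.15 in the latter), which is a description of chosen genes and not a test. Glycolysis genes gave 9 rises of 20 in primary cells and 4 of 20 in transformed cells, the feedback, chromatin and mitochondrial genes 4 and 9 of 21. ENO2, an enolase, rose in primary cells, where it went from 11.4 ± 0.167 TPM at atmospheric oxygen to 48.5 ± 2.59 TPM at 3% oxygen (SD, n = 2), with both 3% libraries above both atmospheric ones (log2 difference 2.04 ± 0.09, SE, adjusted p = 6.5e-07 by limma, 5.9e-07 to 0.0066 over the alternatives). MXI1, a MYC antagonist, stood at 5.51 ± 2.31 TPM and 49.0 ± 6.43 TPM in transformed cells and rose, with both 3% libraries above (3.09 ± 0.22, limma adjusted p = 1.0e-05, 8.5e-06 to 0.0062). AK4 rose in primary and immortalized cells (3.81 and 1.73), IGFBP3 rose in immortalized cells (2.83) and fell in transformed cells (-2.05), and VEGFA rose in transformed cells (2.29). In metastasizing cells CITED2, a feedback inhibitor of HIF, fell (-1.71), as did INSIG2 (-1.23) and PFKFB4 (-1.11). The limma adjusted p of these falls reached 0.025, 0.095 and 0.15 over the alternatives, so none of them held under every alternative. PLOD2 in metastasizing cells was at 438 ± 42.8 TPM at atmospheric and 470 ± 71.7 TPM at 3% oxygen.

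Genes of the ATF4 stress response are set beside DDIT4 and STC2, which are among its known targets. Of 16 tested genes, 0 rose and 2 fell in primary and in immortalized cells, 11 rose and 0 fell in transformed cells, and 0 were called by limma in metastasizing cells (4 above and 3 below 0 at an unadjusted p under 0.05), with medians of -0.94, -0.52, 1.45 and 0.46. Of all genes tested, 4.9% were called higher in transformed cells, and 2.52% and 2.78% lower in primary and immortalized cells. TRIB3, the gene nearest to DDIT4, fell in primary and immortalized cells (-1.65 and -1.36) and rose in transformed cells (2.24). The limma adjusted p of these falls reached 0.014 and 0.0051 over the alternatives. Because TRIB3 was found nearest by its profile over these same groups, its sharing of signs with DDIT4 is not a separate observation. NUPR1 stood at 3.63 ± 0.171 and 44.9 ± 6.35 TPM in transformed cells and rose (3.45 ± 0.54, limma adjusted p = 0.00081, 0.00072 to 0.0042 over the alternatives), with both 3% libraries above, and CHAC1 rose there too (2.78). The limma adjusted p of CHAC1 reached 0.028 over the alternatives. The summed TPM of the list was 1413 to 1723 in primary cells at atmospheric oxygen and 1086 to 1148 at 3% oxygen, and 1418 to 1475 and 3161 to 3436 in transformed cells. The list was assembled with results of these libraries known, and its part in the differences of DDIT4 and STC2 was not tested.

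**Figure D4:**
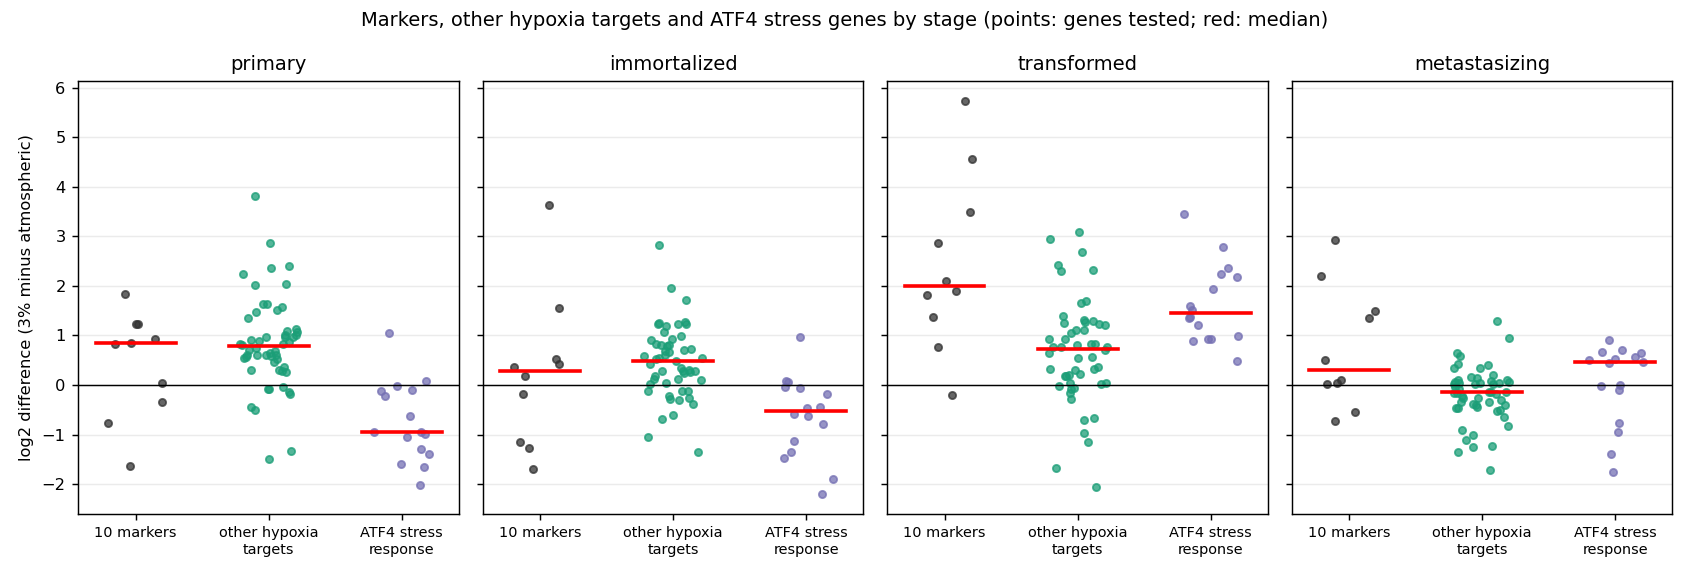
Log2 difference of 3% minus atmospheric oxygen for the 10 markers, the tested other hypoxia targets and the 16 ATF4 stress genes in each stage, with a point for each gene and the median in red. The ATF4 genes have a median below 0 in primary and immortalized cells (-0.94 and -0.52) and above 0 in transformed cells (1.45), while the other hypoxia targets have a median below 0 in metastasizing cells alone (-0.15).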

How the data were processed

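RNA was sequenced by the authors from poly-A selected libraries made with a stranded kit, and transcripts were quantified with kallisto 0.42.1 against GRCh37 (per the study's methods and the submitters' processing notes). The deposited values are TPM per transcript, with each library summing to 1000000. Of 180253 transcripts listed, 151453 were matched to GENCODE 44 by identifier (28800 were not), 1 stray line was skipped, and TPM were summed by gene over 34451 genes. The matched transcripts held 88.2% to 90.1% of TPM, and 0 columns were left unused.

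The markers, the gene lists and the tests were chosen with earlier results of these data known. limma 3.58.1 in R 4.3.3 was fitted to log2(TPM + 0.5) with 1 coefficient per group and an intensity trend, for protein-coding genes that averaged 1 TPM or more in any group compared, with Benjamini-Hochberg adjustment. The authors tested estimated counts, which are not used here. The fit was tried on simulated data for the oxygen comparison of transformed cells alone, with a spread per gene that was equal in all groups. The other comparisons were not tried in this way. List genes named are the up to 2 largest rises and falls per list and stage, or otherwise the gene nearest 0, and further genes were named after their values were seen. Python 3.11.15, pandas 2.3.3, numpy 2.4.6 and matplotlib 3.10.9 were used. Alternatives covered pseudocounts of 1 and 0.1, no filter and a filter of 5 TPM, median-ratio and quantile scaling, fits of only the groups compared, replicate blocks, no trend, all genes, coding transcripts and each library left out. p-values measure the spread between plates.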

Additional observations from a re-analysis of the deposited data

Results flagged for a closer look

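For 4 markers every library at 3% oxygen lay on one side of the atmospheric libraries in a stage and on the other side in the next stage, which is why they are listed here. How many of all genes did so was not counted. The differences are on the log2(TPM + 0.5) scale, and since the genes were chosen with these values known, the calls of these changes in the fit across all genes describe them and are not an independent test. The oxygen difference of STC1 changed by -2.93 from primary to immortalized cells, which was not called, and was 5.20 higher in transformed than in immortalized cells. That of DDIT4 was 4.00 higher, and that of STC2 3.08 higher, in transformed than in immortalized cells. For ANKRD37 it changed by -1.92 from transformed to metastasizing cells.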

How the results depend on the processing

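Of 1044 alternative values of the 40 oxygen differences of the markers, 1021 moved by less than the spread between replicates, 23 moved by more, and 9 had the other sign. These 9 belong to 6 differences that were not called, among them DDIT4 in metastasizing cells (0.27), and 0 of 393 values of called differences had the other sign. In metastasizing cells the number of markers called for oxygen was 1 with no filter on low values, 0 with a fit of only the groups compared and 1 with a crossed replicate block, and the number of other hypoxia targets was 1 with no filter, 0 with that fit and 1 with a replicate block within each stage. For metastasizing against transformed cells at atmospheric oxygen it was 3 with no filter. For transformed against immortalized cells at 3% oxygen it was 4 with a fit of only the groups compared. For metastasizing against transformed cells at 3% oxygen it was 1 with a pseudocount of 1 TPM, 1 with 0.1 TPM and 1 with quantile normalization, and the oxygen effect of metastasizing minus transformed gave 0 with a fit of only the groups compared.

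With each library left out in turn the markers called for oxygen were 1 to 2 in primary and 1 to 3 in metastasizing cells, and the other hypoxia targets 1 to 7 in metastasizing cells. For the steps they were 3 to 7 (metastasizing against transformed, atmospheric oxygen), and at 3% oxygen 1 to 4, 1 to 4 and 0 to 3 in stage order, and for the oxygen effect of metastasizing minus transformed 4 to 8. A lone library was then taken to vary like the other groups. In immortalized and transformed cells too, some markers gained or lost a call for oxygen, as named above.

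Replicate letters a and b gave correlations of same-letter deviations of -0.150, -0.0998, -0.0773 and -0.0973 over 13146 genes, so they only share a letter. The replicate block gave 1, 3, 8 and 2 markers called for oxygen from primary to metastasizing cells. The crossed block, the block within each stage, coding transcripts only and the sum of BNIP3 and BNIP3P1 were chosen after seeing the data. Unknown depth limits low values such as CA9 in primary cells and in transformed cells at atmospheric oxygen.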

Other observations

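Other gene groups in these libraries moved with oxygen as follows. For scale, from primary to metastasizing cells 2.78%, 2.13%, 4.9% and 3.06% of all genes were called higher, and 2.52%, 2.78%, 2.58% and 4.6% lower. Of 12 proliferation genes, 2 rose in primary and 4 in immortalized cells, among them MKI67 (log2 differences 1.19 and 1.11) and RRM2 (1.30 and 1.08), and 0 were called by limma in transformed or in metastasizing cells (5 and 3 at an unadjusted p under 0.05). For MKI67 the limma adjusted p reached 0.016 in primary and 0.022 in immortalized cells over the alternatives. The 10 p53 targets gave 1 fall in primary cells, 3 falls in immortalized cells and 5 in metastasizing cells, and 0 were called in transformed cells by limma (4 at an unadjusted p under 0.05). GDF15, a stress-induced cytokine, was among those that fell in primary, immortalized and metastasizing cells (-2.24, -2.25 and -2.40). Its limma adjusted p reached 0.023, 0.023 and 0.10 in these stages over the alternatives, so none of its falls held under every alternative. Of the fibroblast markers, PDGFRB fell in primary cells (-1.60), DCN in immortalized cells (-1.63), POSTN and COL1A1 in transformed cells (-3.01 and -2.05), and 5 in metastasizing cells, LUM by the most (-2.79), while FAP rose in transformed cells (2.01). Over the alternatives the limma adjusted p of these differences reached 0.067 for LUM, 0.022 for COL1A1 and 0.019 for DCN. It stayed under 0.01 for PDGFRB, POSTN and FAP. KRT18 rose in immortalized and metastasizing cells (1.24 and 1.76). Of 5 endothelial markers in the table, TIE1 rose in metastasizing cells, to 12.3 ± 10.7 TPM (SD, n = 2), and CDH5, VWF, KDR and CLDN5 stayed below 1 TPM in every library. The limma adjusted p of TIE1 reached 0.037 over the alternatives. Among the other mTORC1 regulators SESN2, which is also on the ATF4 list, fell in immortalized cells (-1.47).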
